A study of Mus musculus with 4 samples.

Results

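RNA of 30 genes that are used to follow the oligodendrocyte lineage, from dividing precursors to myelinating cells, was examined in RNA-seq libraries of primary mouse astrocytes. The genes were taken from a list of symbols and matched exactly to the gene names of the deposited table, which listed 25393 genes. Of the 30 genes, 27 had a row. The symbols Neu4, Mobp and Opalin had no row and were not analysed here. The study compared astrocytes of wild-type mice with those of Tet1 constitutive knockout mice, to learn what the DNA dioxygenase Tet1 does in this cell type. The WT group was wild type for Tet1 and the KO group carried the genotype tet1-/-, and both were untreated, of the C57BL/6 strain and from mice of postnatal day 1. For each isolation, cells of the cortex and hippocampus of 2 mice were pooled and grown for about 7 days, then shaken at 260 rpm, kept for another 24 h and lysed for RNA. The 2 WT and 2 KO libraries held between 18749610 and 22673555 reads on genes. The knockout line was constitutive and so not limited by design to astrocytes. The study describes its RNA-seq repeats as biological and states more of them per genotype than the labels hold. The labels number 2 libraries a genotype as replicates without saying whether each came from its own culture, so p-values measure the spread between these libraries, part of which may be technical.

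Oligodendrocytes make the myelin sheaths of the central nervous system. They come from precursor cells that divide in response to platelet-derived growth factor, leave the cell cycle, and then switch on the genes for myelin proteins and lipids under the control of transcription factors such as Olig2, Sox10 and Myrf. In cultures from newborn cortex, precursor cells grow on top of the astrocyte layer, and shaking is the usual way to detach them together with microglia. Several genes of the lineage are also used by other neural cells, and Olig1, Olig2 and Ptprz1 are known from immature astrocytes. In bulk RNA, fewer cells of a type and less RNA per cell cannot be told apart.

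Each deposited value was the reads of a gene over the size factor of its library, here called a normalized count, and 1 read was worth between 0.901 and 1.07 units. Levels of different genes were compared only as FPKM (reads per kilobase of gene model and per 1000000 reads on genes), calculated from the same reads. A library in which a gene had no read leaves room for up to 3 reads, or 2.70 to 3.21 normalized counts, by counting error alone. Differences were tested on log2(normalized count + 1) with limma over the 22094 genes whose mean reached 1 normalized count, 26 of the 27 genes among them, and Ermn fell under that minimum. The targeted gene did not separate the labels. Tet1 stood at 266 and 121 normalized counts in WT, against 173 and 463 in the KO-labelled libraries, a log2 difference of 0.66 (SE 0.65, limma, unadjusted p = 0.357, adjusted p = 0.691). A count per gene does not tell transcripts with the deleted part from those without it, so this value does not check the genotype, and the mutant group is called the KO-labelled libraries. The KO-labelled libraries were also less alike than the WT libraries, with 28.6% against 10.7% of 12868 genes with a mean of at least 50 normalized counts differing by more than 2-fold within the pair. Of the 27 genes, 13 overlap an annotated gene on the opposite strand (GENCODE M21). KO replicate 2 stood apart in Gfap, the intermediate filament of astrocytes, at 117 FPKM against 687, 765 and 1871 in the other libraries.

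The genes fell into a small group that was strongly expressed and a large group that was close to absent. The mean over the 4 libraries was at least 1 FPKM for 9 of the 27 genes, under 1 FPKM for 18, and under 0.1 FPKM for 11. At least 3 reads were found in every library for 16 genes, in 1 to 3 libraries for 9, and in no library for Fa2h and Ermn. Olig1 led the list at a mean of 195 FPKM, above 99.4% of all listed genes. It was followed by Cnp at 58.2 FPKM, Olig2 at 46.6, Ptprz1 at 20.2, Sox8 at 19.9, Nkain1 at 17.99 and Tcf7l2 at 4.04, with Nkx2-2 at 1.37 and Pdgfra at 1.21 at the lower edge. The order of Ptprz1, Sox8 and Nkain1 was not the same in each library, and their ranges over the 4 libraries overlapped. The place of Cnp held in 3 libraries only, since in KO replicate 2 it was at 12.6 FPKM, below Olig2, Ptprz1, Sox8 and Nkain1. Cnp and Olig2 overlapped as well, as did Nkx2-2 and Pdgfra, while Tcf7l2 was below the genes above it and above those below it in every library. Sox10, Gpr17, Mag and Mog, which are among the genes most specific to the lineage, were each under 0.1 FPKM on average. High and low genes occurred within every stage, and the genes are therefore described 1 by 1 and not as a measure of a cell type.

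**Figure D1:**
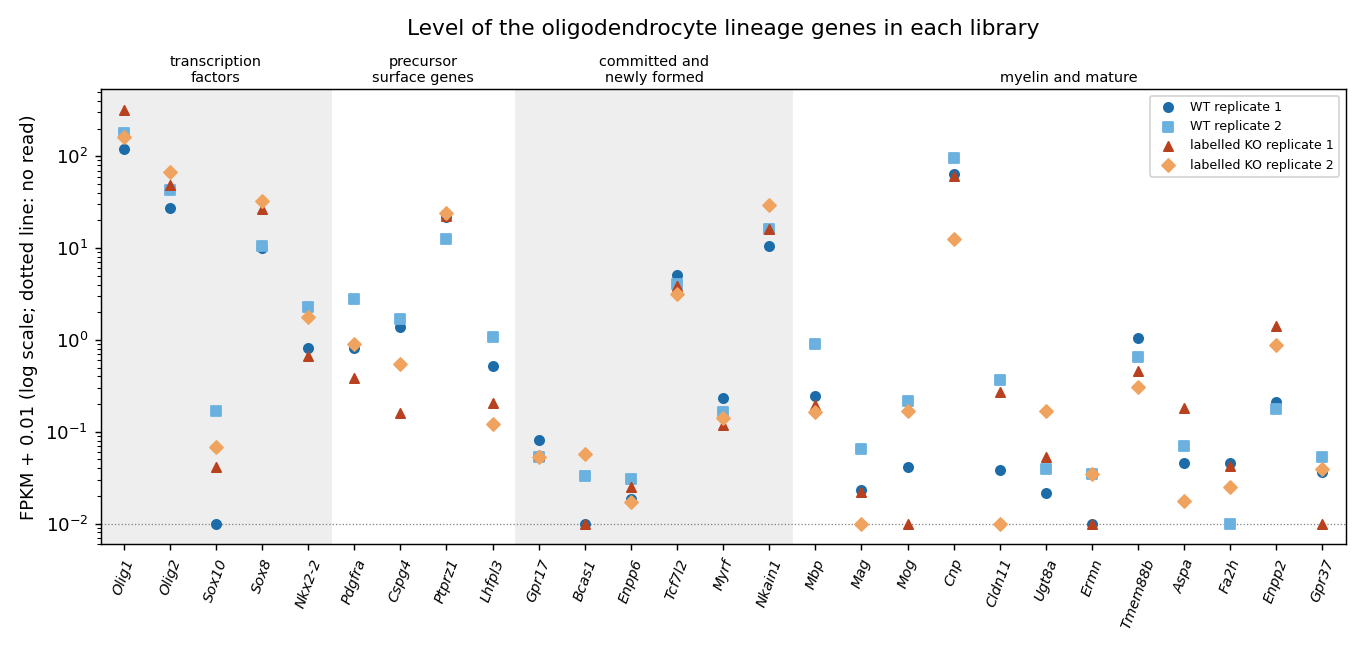
Level of each oligodendrocyte lineage gene in each library, as FPKM + 0.01 on a log scale; each point is 1 library, genes are ordered from precursor to myelinating stage, and the dotted line marks a library with no read. Olig1, Olig2, Sox8, Ptprz1, Tcf7l2, Nkain1 and Cnp stand above 3 FPKM in all 4 libraries, while Sox10, Gpr17, Mag and Mog stay under 1 FPKM.

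Tet1 oxidizes methylated cytosine, which in mammals lies mostly in CpG pairs, so the CpG pairs in the promoters of the list are shown here as background to the levels. RefSeq promoter sequences (GRCm38.p6) were at hand for 22 of the 30 genes, 19 of them in the table. In the 250 bases before the start of transcription, the 8 genes averaging 1 FPKM or more had a median of 20 CpG (4 to 36), and the 11 genes under 1 FPKM a median of 4 (2 to 32). All listed genes with an entry showed the same order, with a median of 16 CpG for 9343 genes at or above 1 FPKM and of 6 CpG for 5151 genes under it. Some genes stood outside this order. Ugt8a with 32 CpG, Cldn11 with 19 and Gpr37 with 16 were all under 1 FPKM, while Pdgfra, with 4, was above it. The sequences of 6 genes show both ends of this range among the genes that the results turn on: 2 transcription factor genes that were expressed, 2 precursor genes that were lower in the KO-labelled libraries, and 2 myelin genes that were near 0. Each is written 5′ to 3′ in the direction of the gene with CpG in capitals, and for Olig2 and Cspg4, whose RefSeq start lies inside the gene of the deposited table, only the bases before that gene are given.
Olig2 (chr16:91225300-91225456, plus strand, 14 CpG): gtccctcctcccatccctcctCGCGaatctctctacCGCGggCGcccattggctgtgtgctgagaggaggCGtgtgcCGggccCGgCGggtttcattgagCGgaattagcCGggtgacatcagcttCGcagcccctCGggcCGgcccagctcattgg
Sox8 (chr17:25570687-25570936, minus strand, 18 CpG): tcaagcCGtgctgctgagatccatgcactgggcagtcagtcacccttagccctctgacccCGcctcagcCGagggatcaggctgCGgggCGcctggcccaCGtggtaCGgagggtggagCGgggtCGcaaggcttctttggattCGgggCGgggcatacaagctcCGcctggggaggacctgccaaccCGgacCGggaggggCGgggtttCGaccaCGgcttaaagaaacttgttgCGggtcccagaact
Cspg4 (chr9:56864854-56865032, plus strand, 8 CpG): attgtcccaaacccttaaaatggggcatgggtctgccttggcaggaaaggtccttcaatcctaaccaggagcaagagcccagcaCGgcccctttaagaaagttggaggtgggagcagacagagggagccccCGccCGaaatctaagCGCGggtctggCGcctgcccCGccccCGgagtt
Lhfpl3 (chr5:22745804-22746053, plus strand, 11 CpG): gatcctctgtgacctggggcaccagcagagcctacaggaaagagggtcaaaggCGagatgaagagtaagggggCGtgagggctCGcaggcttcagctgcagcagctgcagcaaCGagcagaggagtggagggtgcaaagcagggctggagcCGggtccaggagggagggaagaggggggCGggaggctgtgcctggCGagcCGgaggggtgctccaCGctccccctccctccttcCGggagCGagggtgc
Mog (chr17:37023399-37023648, minus strand, 2 CpG): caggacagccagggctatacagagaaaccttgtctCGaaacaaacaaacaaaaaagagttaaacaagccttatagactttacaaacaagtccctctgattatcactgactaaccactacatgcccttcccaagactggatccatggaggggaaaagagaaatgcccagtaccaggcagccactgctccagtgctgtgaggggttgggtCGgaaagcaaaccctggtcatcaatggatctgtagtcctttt
Ermn (chr2:58052865-58053114, minus strand, 3 CpG): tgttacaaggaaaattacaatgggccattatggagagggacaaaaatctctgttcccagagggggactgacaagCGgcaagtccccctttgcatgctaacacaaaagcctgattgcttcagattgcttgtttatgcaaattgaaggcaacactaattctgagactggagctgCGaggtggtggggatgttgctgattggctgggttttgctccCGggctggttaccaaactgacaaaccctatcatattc
The motif CANNTG, the general site of basic helix-loop-helix factors such as Olig2, which reads the same on both strands, was present in 14 of the 25 entries of the list and in 66.2% of all 32851 entries. AACAAT, a core sequence of Sox factors searched on both strands, was present in 5 of the 25 entries and in 9.42% of all entries. The motifs can share letters and were counted separately, and a match describes the letters of the window only. DNA methylation was not measured in these libraries.

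**Figure D2:**
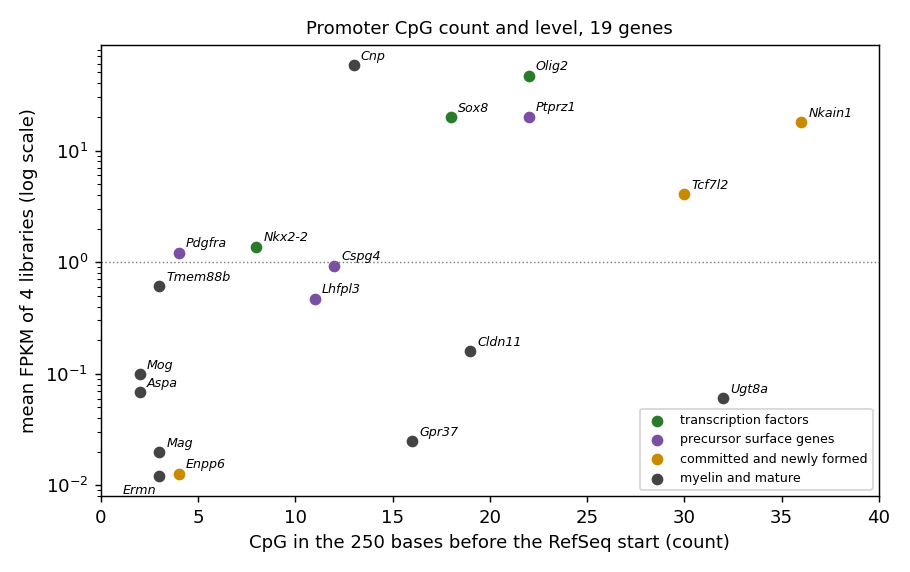
Number of CpG in the 250 bases before the RefSeq start (x axis, count) against the mean FPKM of the 4 libraries (y axis, log scale) for the 19 genes with both values, coloured by stage; the dotted line marks 1 FPKM. Genes under 4 CpG lie below the line, but Ugt8a with 32 CpG and Cldn11 with 19 lie below it too.

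To see whether the lineage genes differed between the labels, the KO-labelled libraries were set against the WT libraries. No gene of the list passed an adjusted p of 0.05 by limma, and of all genes tested 0% did. At an unadjusted p under 0.05, Sox8 and Enpp2 were higher and Cspg4 and Lhfpl3 were lower in the KO-labelled libraries. That is 2 of 26 genes higher, or 7.69%, where 4.54% of all genes were higher, and 2 of 26 lower, or 7.69%, where 9.18% of all genes were lower, so the counts were near those of the whole table. Both KO-labelled libraries lay above both WT libraries for 6 genes (23.1%, against 22.5% of all genes) and below them for 6 genes (23.1%, against 25.4%). The median log2 difference was -0.24 over the 26 genes and -0.07 over all genes tested. By DESeq2, run as an alternative on the recovered reads, 16 genes of the list had an adjusted p. Sox8 and Enpp2 passed upward (12.5%, against 1.75% of 16525 genes) and Cspg4 passed downward (6.25%, against 4.93%). By edgeR no gene of the list and no gene of the table passed the adjusted threshold, with 2733 genes at an unadjusted p under 0.05 against 3032 by limma.

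**Figure D3:**
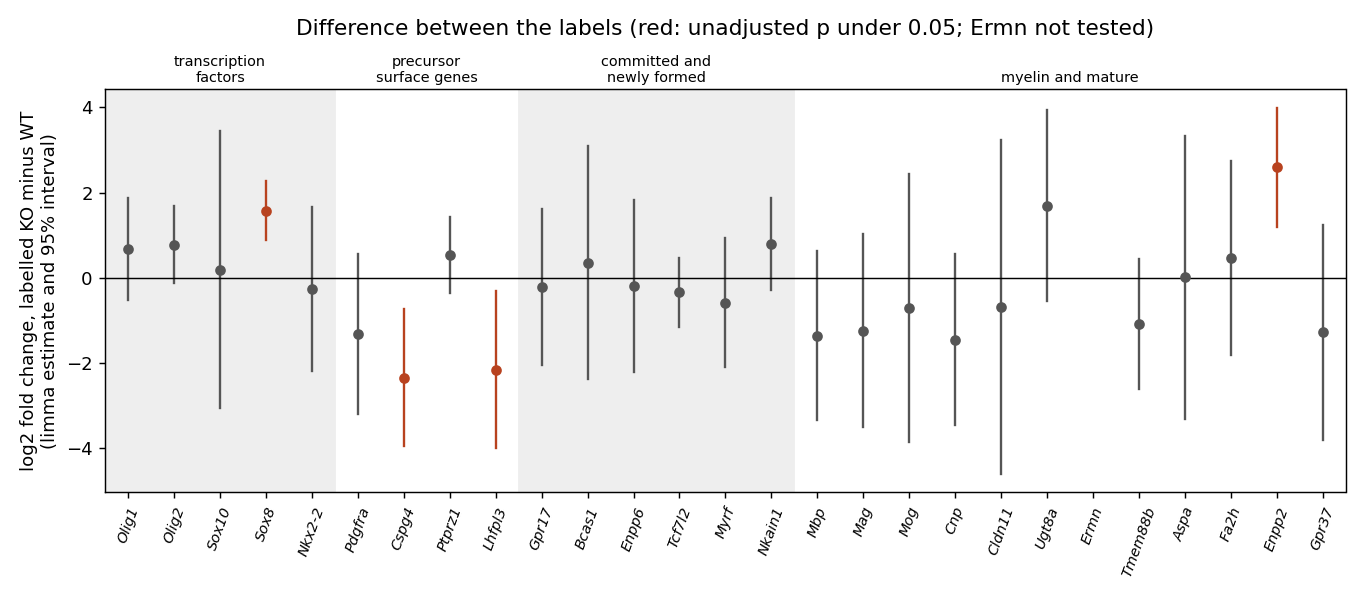
Log2 difference between the KO-labelled libraries and the WT libraries for the 26 tested genes; points are limma estimates, bars are 95% intervals, and red marks an unadjusted p under 0.05. Sox8 and Enpp2 lie above 0, Cspg4 and Lhfpl3 lie below it, and the intervals of the other 22 genes include 0.

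Of the 5 transcription factors, Sox8 differed most clearly. Sox8, an HMG-box factor of the same subfamily as Sox10 (chromosome 17, 25565892 to 25570686, minus strand, mm10), stood at 623 and 677 normalized counts in WT, against 1854 and 2029 in the KO-labelled libraries. The groups were far apart and each pair was tight, with a fold of 1.09 between the WT libraries and of 1.09 between the KO-labelled libraries. The mean was 2.99-fold higher in the KO-labelled libraries (log2 difference 1.58, SE 0.28, 95% interval 0.88 to 2.28, limma, unadjusted p = 0.00185, adjusted p = 0.153), and DESeq2 gave an adjusted p of 0.00402. The unadjusted p stayed under 0.05 in all 12 alternative analyses, including those without any one of the 4 libraries, with log2 differences from 1.51 to 1.64. A noncoding gene, 2810468N07Rik, lies on the opposite strand of Sox8, and the strand of the libraries is not given in the sources used here, so reads of the pair cannot be told apart.

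Olig1 and Olig2, the basic helix-loop-helix factors that specify the lineage, lie next to each other on chromosome 16. Olig2 (91225457 to 91228677) had 1391 and 2289.7 normalized counts in WT, against 2738 and 3406 in the KO-labelled libraries. The groups did not overlap, but the gap between them was smaller than the difference between the WT libraries (log2 difference 0.77, SE 0.36, limma, unadjusted p = 0.0785, adjusted p = 0.421). For Olig1 (91269772 to 91271933) the values were 5256 and 8033 in WT, against 15319 and 7074 in the KO-labelled libraries. KO replicate 1 was the highest of the 4 and KO replicate 2 lay between the WT libraries, so the groups overlapped (log2 difference 0.68, SE 0.48, limma, unadjusted p = 0.211, adjusted p = 0.578). Without KO replicate 2, the Olig1 difference was 1.24 with an unadjusted p of 0.0376 by limma.

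Sox10, which drives the myelin genes and is kept on through the whole lineage, was close to absent. It had 0 and 11 reads in the WT libraries, against 2 and 4 reads in the KO-labelled libraries, or 0, 10.1, 2.14 and 3.61 normalized counts. Only WT replicate 2 and KO replicate 2 were above 3 reads. On the FPKM scale Sox10 was at 0 and 0.159 in WT and at 0.0317 and 0.0585 in the KO-labelled libraries, while the lowest library was at 122 for Olig1 and at 9.99 for Sox8. The 95% limma interval of the Sox10 difference ran from -3.06 to 3.44 on the log2 scale, so no difference was detectable at this depth. Nkx2-2, a homeodomain factor of the precursor stage, had 45.9 and 136 normalized counts in WT, against 41.7 and 103 in the KO-labelled libraries. In both groups replicate 2 was over 2-fold above replicate 1, and the groups overlapped (log2 difference -0.27, SE 0.77, limma, unadjusted p = 0.740, adjusted p = 0.902).

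**Figure D4:**
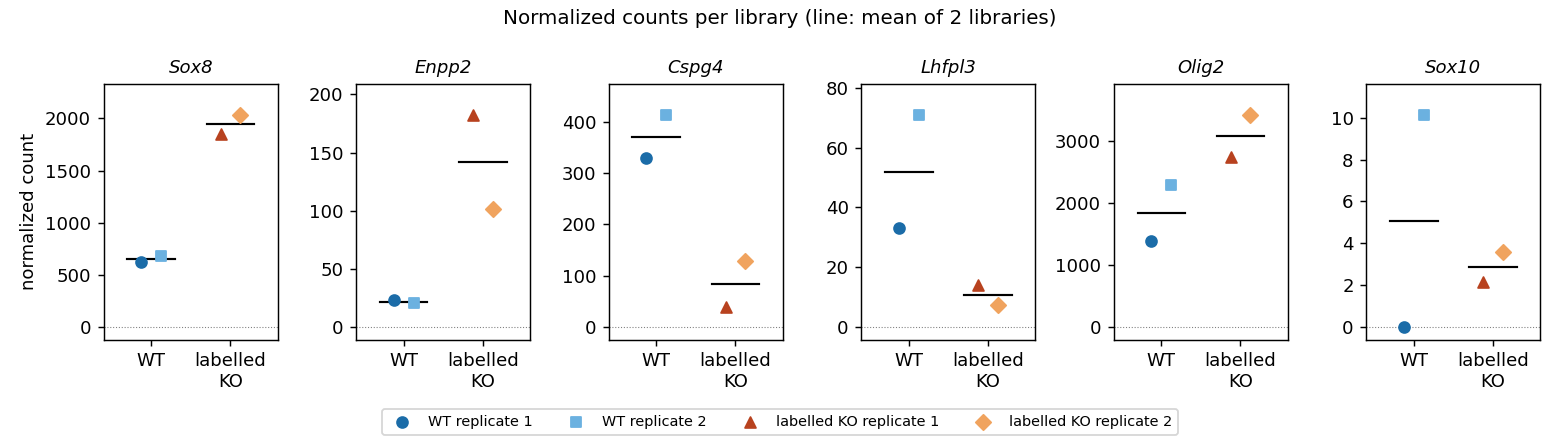
Normalized counts of 6 genes in each library; points are libraries, black lines are the means of the 2 libraries of a group, and each panel has its own linear axis. Sox8 and Enpp2 are higher and Cspg4 and Lhfpl3 lower in both KO-labelled libraries, Olig2 shows a small gap, and Sox10 stays under 11 normalized counts.

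The precursor surface genes did not differ in 1 direction. Cspg4, the NG2 proteoglycan of precursor cells and of pericytes (chromosome 9, 56865033 to 56899870, plus strand), had 330 and 413 normalized counts in WT, against 39.6 and 128 in the KO-labelled libraries. Both KO-labelled libraries were below both WT libraries, although they differed 3.23-fold from each other. The mean was 4.43-fold higher in WT (log2 difference -2.35, SE 0.64, 95% interval -3.96 to -0.74, limma, unadjusted p = 0.0125, adjusted p = 0.253), and DESeq2 gave an adjusted p of 0.0310. Lhfpl3, a tetraspan membrane protein enriched in precursor cells (chromosome 5, 22746059 to 23275597, plus strand), had 33.1 and 70.8 normalized counts in WT, against 13.9 and 7.21 in the KO-labelled libraries. Again the groups did not overlap, at a log2 difference of -2.16 (SE 0.73, limma, unadjusted p = 0.0293, adjusted p = 0.317; DESeq2 adjusted p = 0.126). These Lhfpl3 values rest on 8 to 77 reads a library, and 6 other genes overlap Lhfpl3, 2 of them on its own strand, so part of the reads may belong to them. The call for Cspg4 was lost without WT replicate 1 (log2 difference -2.52, unadjusted p = 0.0969 by limma) or WT replicate 2 (-2.19, 0.149), at differences close to that of all 4 libraries, while the difference was -1.52 without KO replicate 1 and -3.19 without KO replicate 2. The call for Lhfpl3 was lost without WT replicate 1 (-2.70, unadjusted p = 0.0711 by limma), WT replicate 2 (-1.62, 0.200) or KO replicate 2 (-1.73, 0.0885).

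Pdgfra, the receptor through which platelet-derived growth factor drives precursor division, had 163 and 578 normalized counts in WT, against 82.4 and 182 in the KO-labelled libraries. The groups overlapped, since KO replicate 2 was above WT replicate 1, and the WT libraries differed 3.54-fold (log2 difference -1.32, SE 0.75, limma, unadjusted p = 0.133, adjusted p = 0.489). Ptprz1, a receptor-type phosphatase with a chondroitin sulfate domain, made up most of this stage, at a level 16.6 times that of Pdgfra in FPKM. It had 6197 and 3731 normalized counts in WT, against 7035 and 6923 in the KO-labelled libraries. The gap to WT replicate 1 was small beside the difference within WT (log2 difference 0.54, SE 0.35, limma, unadjusted p = 0.185, adjusted p = 0.552). The median log2 difference of the 4 precursor surface genes was -1.74, with 3 below 0 and Ptprz1 above it.

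None of the 6 measured genes of committed and newly formed cells passed the unadjusted threshold. Gpr17, a G protein-coupled receptor switched on for a short time in committed precursors, had 5 to 7 reads in every library. Bcas1, which marks cells that begin to myelinate, had at most 4 reads, and Enpp6, a choline phosphodiesterase of newly formed oligodendrocytes, at most 3. No difference between the labels was detectable for these 3 genes at this depth. Myrf, the membrane-bound factor that switches on the myelin genes, had 38.4 and 27.6 normalized counts in WT, against 20.3 and 22.5 in the KO-labelled libraries. Its groups did not overlap, but the gap was smaller than the difference within WT (log2 difference -0.58, SE 0.60, limma, unadjusted p = 0.374, adjusted p = 0.703).

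Tcf7l2 and Nkain1 made up 98.1% to 99.3% of the summed FPKM of this stage. Tcf7l2, a transcription factor of the Wnt pathway that is used by many cell types, had 897 and 742 normalized counts in WT, against 742 and 554 in the KO-labelled libraries, with almost equal values in WT replicate 2 and KO replicate 1 (log2 difference -0.35, SE 0.32, limma, unadjusted p = 0.328, adjusted p = 0.666). Nkain1, which encodes a protein that interacts with the sodium pump, had 298 and 481 normalized counts in WT, against 508 and 843 in the KO-labelled libraries. The highest value was in KO replicate 2, and KO replicate 1 was close to WT replicate 2 (log2 difference 0.79, SE 0.43, limma, unadjusted p = 0.120, adjusted p = 0.472).

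Among the genes of myelin and mature cells, Enpp2 was the 1 that passed the unadjusted threshold, and it was higher in the KO-labelled libraries. Enpp2 encodes autotaxin, a secreted enzyme that makes lysophosphatidic acid and is also strongly expressed by choroid plexus and other cells (chromosome 15, 54838901 to 54952892, minus strand). Its values were 23.5 and 20.2 normalized counts in WT, against 182 and 102 in the KO-labelled libraries. Both KO-labelled libraries were far above both WT libraries, and the means differed 6.49-fold (log2 difference 2.59, SE 0.56, 95% interval 1.18 to 3.997, limma, unadjusted p = 0.00470, adjusted p = 0.195; DESeq2 adjusted p = 0.00198). The noncoding gene Gm26684 overlaps Enpp2 on the opposite strand. The call was lost without WT replicate 2, at an unadjusted p of 0.0619 by limma, and the log2 differences without 1 library ran from 2.174 to 3.005. The groups overlapped for each of the 4 measured choroid plexus and ependymal markers. Ttr, the transthyretin of choroid plexus, had 0 and 57.9 normalized counts in WT, against 1.07 and 469.6 in the KO-labelled libraries. Folr1, a folate receptor of choroid plexus, had 179 and 291 in WT, against 419 and 26.1. The library with the highest Enpp2, KO replicate 1, was thus the highest in Folr1 and near 0 in Ttr. Their part in the Enpp2 difference was not tested.

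Cnp, the cyclic nucleotide phosphodiesterase of noncompact myelin, was the only gene of this stage above 1 FPKM on average. It had 4651 and 7259 normalized counts in WT, against 4880 and 923 in the KO-labelled libraries. KO replicate 1 lay between the WT libraries and KO replicate 2 far below them, a 5.29-fold difference within the label (log2 difference -1.45, SE 0.80, limma, unadjusted p = 0.126, adjusted p = 0.479). The Cnp difference was -0.25 without KO replicate 2 (unadjusted p = 0.548 by limma) and -2.65 without KO replicate 1 (0.00745), so it rested on KO replicate 2. The protein-coding gene Dnajc7 overlaps Cnp on the opposite strand, and the share of its reads in these values was not tested.

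The structural proteins of compact myelin were low in every library. Mbp, myelin basic protein, had 39.5 and 155 normalized counts in WT, against 34.3 and 26.1 in the KO-labelled libraries. WT replicate 2 stood above the other 3 libraries, and WT replicate 1 was close to KO replicate 1 (log2 difference -1.36, SE 0.79, limma, unadjusted p = 0.141, adjusted p = 0.5001). Tmem88b, a transmembrane protein gene, had 72.6 and 46.0 normalized counts in WT, against 34.3 and 20.7 in the KO-labelled libraries. The groups did not overlap (log2 difference -1.09, SE 0.61, limma, unadjusted p = 0.130, adjusted p = 0.486).

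The remaining myelin genes were at the edge of detection. Mag, the myelin-associated glycoprotein, had 0 to 5 reads a library, and Mog, the glycoprotein of the outer myelin surface, had 0 to 8. Cldn11, the tight junction protein of myelin, had 1 and 15 reads in WT, against 10 and 0 in the KO-labelled libraries, so 1 library of each label carried nearly all of its reads. Ugt8a, the enzyme that makes the myelin lipid galactosylceramide, had 1 and 3 reads in WT, against 4 and 16 in the KO-labelled libraries. The groups of Ugt8a did not overlap, but only by 3 reads against 4 (log2 difference 1.70, SE 0.89, limma, unadjusted p = 0.112, adjusted p = 0.467). The Ugt8a difference was 2.47 without KO replicate 1 and 0.92 without KO replicate 2. Aspa, which breaks down N-acetylaspartate in oligodendrocytes, had 4 and 8 reads in WT, against 21 and 1 in the KO-labelled libraries. Gpr37, a receptor of maturing oligodendrocytes, had at most 6 reads, while Ermn, a cytoskeletal protein of mature cells, and Fa2h, a hydroxylase of myelin lipids, had at most 2. No library held the most reads of every gene in this group. For the 7 of these genes that were tested, the 95% limma interval of the difference included 0.

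Summed by stage, the list was carried by 7 genes. The 5 transcription factors summed to 160 and 234 FPKM in WT, against 396 and 263 in the KO-labelled libraries, and Olig1, Olig2 and Sox8 made up 99.0% to 99.8% of that. The precursor surface genes summed to 24.5 and 18.05 FPKM in WT, against 23.0 and 25.6 in the KO-labelled libraries, with 69.6% to 96.9% from Ptprz1. Without Ptprz1 they came to 2.71 and 5.48 FPKM in WT, against 0.716 and 1.54, so the other 3 genes together were lower in both KO-labelled libraries. Ptprz1 was the only gene of this stage with a log2 difference above 0, so leaving it out shaped this order. The groups of Pdgfra alone overlapped. The myelin and mature genes summed to 65.6 and 98.1 FPKM in WT, against 63.1 and 14.3 in the KO-labelled libraries, with 88.0% to 97.5% from Cnp. Without Cnp the myelin sum was between 1.67 and 2.57 FPKM, and the labels overlapped. Among libraries of 1 label, the genes did not vary in step. Of the 16 genes with at least 3 reads in every library, replicate 2 was above replicate 1 for 10 in WT and for 7 in the KO-labelled libraries. A difference of more than 2-fold within WT was found for Mbp (3.94), Pdgfra (3.54), Nkx2-2 (2.97) and Lhfpl3 (2.14), and within the KO-labelled libraries for Cnp (5.29), Cspg4 (3.23), Nkx2-2 (2.46), Pdgfra (2.21) and Olig1 (2.17).

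**Figure D5:**
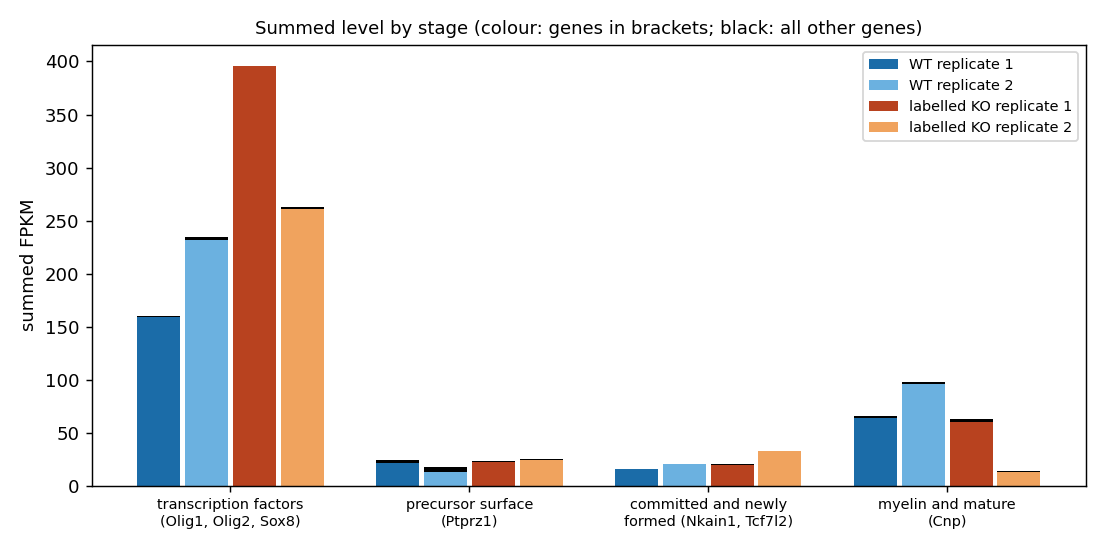
Summed FPKM of the genes of each stage in each library; the coloured part of a bar is the genes named in brackets under the axis and the black part all other genes of the stage. The bars consist almost wholly of Olig1, Olig2 and Sox8, of Ptprz1, of Nkain1 and Tcf7l2, and of Cnp, and the myelin bar of KO replicate 2 (14.3 FPKM) is the lowest of its stage.

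Other genes with roles in the lineage were examined as a wider list of 46, of which 42 had a row and 41 were tested. At an unadjusted p under 0.05, 1 was higher (2.44%, against 4.54% of all genes) and 7 were lower (17.1%, against 9.18%) in the KO-labelled libraries, with a median log2 difference of -0.33. Of the 7, 4 belonged to the 18 tested myelin genes, 2 to the 9 precursor genes and 1 to the 14 regulators. By DESeq2 at an adjusted p under 0.05, 2 genes of the wider list were higher and 3 lower, beside 1.75% and 4.93% of 16525 genes. The DESeq2 adjusted p was 0.00086 for Trf, 0.0088 for Plekhb1 and 0.0185 for Matn4, all lower, and 0.00379 for Megf11, which was higher. Trf, the iron carrier transferrin, had 37.3 and 93.8 normalized counts in WT, against 0 and 2.70 in the KO-labelled libraries (log2 difference -4.97, SE 0.97, limma, unadjusted p = 0.00300, adjusted p = 0.172). Plekhb1, a membrane protein with a pleckstrin homology domain, had 9630.5 and 7629 in WT, against 2332 and 516 in the KO-labelled libraries (log2 difference -2.96, SE 0.72, limma, unadjusted p = 0.00783, adjusted p = 0.222). Both were lower in each KO-labelled library than in each WT library, and both are also known from other cell types.

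Matn4, a matrilin of the extracellular matrix that is found in precursor cells, had 673 and 1298 normalized counts in WT, against 219 and 25.2 in the KO-labelled libraries (log2 difference -3.62, SE 1.03, limma, unadjusted p = 0.0152, adjusted p = 0.266). Megf11, a transmembrane protein with EGF-like repeats, went the other way, at 68.3 and 76.3 in WT, against 197 and 971 in the KO-labelled libraries (log2 difference 2.58, SE 0.79, limma, unadjusted p = 0.0200, adjusted p = 0.286). The most abundant gene of the wider list was Sox9 at a mean of 91.8 FPKM, a factor that astrocytes express strongly, followed by Id2 and Plekhb1, but Id2 was above Sox9 in both KO-labelled libraries (146 and 47.6 FPKM), and Plekhb1 was at 28.3 and 6.89 FPKM there. Sox9 was the regulator among the 7, at 143 and 109 FPKM in WT, against 74.1 and 40.3 in the KO-labelled libraries (log2 difference -1.15, SE 0.43, limma, unadjusted p = 0.0404, adjusted p = 0.351). Of the 10 genes of PDGF and FGF signalling, whose ligands sustain precursor cells, Pdgfc was higher and Fgf2 lower at an unadjusted p under 0.05, 1 of 10 in each direction beside 4.54% and 9.18% of all genes. Pdgfc, a ligand of the receptor encoded by Pdgfra, had 340 and 552 normalized counts in WT, against 762 and 936 in the KO-labelled libraries (log2 difference 0.96, SE 0.37, limma, unadjusted p = 0.0453, adjusted p = 0.358). Fgf2, a mitogen of precursor cells, had 2260 and 1636 in WT, against 304 and 1055 in the KO-labelled libraries (log2 difference -1.76, SE 0.63, limma, unadjusted p = 0.0344, adjusted p = 0.338). Fgfr1, Fgf1 and Fgfr2 were the most abundant of the 10 and their groups overlapped.

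Markers of the other cells such a culture can hold also differed between libraries. The 8 astrocyte markers summed to 1346 and 1325 FPKM in WT, against 2496 and 340 in the KO-labelled libraries, led by Gfap, Slc1a3 and Aldoc. The summed RNA of these markers was thus abundant in all 4 libraries. This did not hold for each marker, with S100b at 0.571 to 5.63 FPKM and Slc1a2 at 2.25 FPKM in KO replicate 2. The sum was lowest in KO replicate 2, the library in which Cnp was also lowest. Gja1, unlike the other astrocyte markers, was not lowest there, at 17.3 and 24.5 FPKM in WT, against 32.4 and 30.6 in the KO-labelled libraries. Of these 8 markers, Slc1a2 was lower at an unadjusted p under 0.05 (12.5%, against 9.18% of all genes) and none was higher (against 4.54%). Without overlap 4 were lower and 1, Gja1, was higher, where 25.4% and 22.5% of all genes were. The 8 microglia markers summed to 23.7 and 44.4 FPKM in WT, against 3.34 and 5.11 in the KO-labelled libraries. Of these, 6 were lower at an unadjusted p under 0.05 and 7 were lower without overlap, where 9.18% and 25.4% of all genes were. C1qa, Cd68 and Csf1r were the most abundant. By DESeq2 at an adjusted p under 0.05, 5 microglia markers were lower and 0 higher, beside 4.93% and 1.75% of 16525 genes. The 5 mural markers, 4 with a row, summed to 56.0 and 240.4 FPKM in WT, against 564 and 1396 in the KO-labelled libraries, nearly all of it from Acta2, smooth muscle actin, which other cultured cells can express as well. Rgs5, a pericyte marker, had 37.3 and 45.1 normalized counts in WT, against 12.8 and 14.4 in the KO-labelled libraries, the same order as Cspg4. The other mural markers did not share this order, with Des at 1.07 and 1.84 in WT, against 2.14 and 10.8, and Kcnj8 overlapping. Pdgfrb, a receptor of pericytes and fibroblasts, overlapped as well, at 2099 and 2239 in WT, against 2242 and 999.

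The 7 fibroblast and meningeal markers, cells that also express Pdgfra, summed to 24.4 and 31.0 FPKM in WT, against 28.6 and 20.48 in the KO-labelled libraries. Of the 7, Col1a2 was higher and Dcn lower at an unadjusted p under 0.05, where 4.54% and 9.18% of all genes were. Of the 5 tested neuron markers 2, Tubb3 and Dcx, were higher at an unadjusted p under 0.05, where 4.54% of all genes were. Without overlap 4 were higher, where 22.5% of all genes were. Dcx rested on few reads, with 1 and 0 in WT, against 7 and 5. The neuron list summed to 8.86 and 17.8 FPKM in WT, against 22.6 and 21.4 in the KO-labelled libraries, mostly from Stmn2. The ependymal and choroid plexus markers, led by Foxj1, summed to 120 and 189 FPKM in WT, against 142 and 49.3 in the KO-labelled libraries. The endothelial markers summed to at most 0.331 FPKM. Schwann cell markers, which include genes of peripheral myelin, summed to between 40.1 and 91.3 FPKM, mostly from Pmp22. Markers with no read in at least 1 library were P2ry12, Snap25, Dcx, Lum, Kcnj8, Cdh5, Ttr and Foxd3, and Snap25 had none in either WT library. The part of any of these cell types in the differences of the lineage genes was not tested.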

How the data were processed

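RNA of cultured astrocytes was sequenced as paired-end Illumina libraries, and the authors filtered the reads and aligned them to mm10, which is also the build of the submitters' processing notes. The aligner, the counting tool and the annotation release are not given in the sources used here. Groups and replicate numbers (2 WT, 2 KO) came from the labels. The deposited signal of each library was a read count per gene divided by 1 size factor (0.934 to 1.11), although the table is called FPKM, and whole reads were recovered for 100% of values in each library (within 0.1 read). The deposited gene lengths and positions are in bases. The deposited genotype means and the authors' own fold changes and p-values were not used. The recovered reads, the deposited length and the total of reads on genes (18749610 to 22673555) gave FPKM. Because no correction for length had been applied, the deposited values compare libraries and not genes.

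Genes with a mean of at least 1 were tested with limma 3.58.1 (variance trend, no block) on log2(value + 1), which understates changes of low genes, with Benjamini-Hochberg adjustment over the 22094 genes. The 95% intervals use 5.40 degrees of freedom. This total adds to those of the 4 libraries a part that limma borrows from the variances of all genes, so it does not stand for more replicates. An exact two-sided permutation test of 2 against 2 libraries cannot give a p below 0.333, so none is reported. Alternatives were a pseudocount of 0.1, a mean of at least 10, no filter, equal sums, quantile normalization, a replicate block, leaving out each library, and edgeR 4.0.16 and DESeq2 1.42.0 on the recovered reads. The main limma fit, edgeR and DESeq2 were checked on simulated counts that had the same spread in both groups. The other settings were not simulated, nor was the larger spread of the KO-labelled pair. Floors of 3 reads cover counting error only. Values with the same replicate number did not deviate together (correlation -0.08 over 22094 genes).

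The genes of the list, the stages, the wider lineage, PDGF and FGF and marker lists were chosen with earlier results of these data known. All listed genes with a row are named, with the most abundant members of the other lists and at most 4 of the wider lineage and of the PDGF and FGF genes with the lowest unadjusted p under 0.05. The markers Slc1a2, Gja1, Dcn, Dcx and Kcnj8 and those with no read in a library were named after their values were seen. Promoter sequences are from RefSeq (GRCm38.p6). CpG counts set against levels used the entry nearest the gene's start, while the motif counts used all 25 entries of the list. For Nkx2-2 and Aspa the entry lay 7841 and 4959 bases from the deposited gene start.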

Additional observations from a re-analysis of the deposited data

How the results depend on the processing

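The calls rest on 2 libraries a label, and leaving 1 out leaves a lone library that is assumed to vary like the others. No gene of the list passed an adjusted p of 0.05 under any limma or edgeR setting, while DESeq2 called 3 (Sox8, Enpp2 and Cspg4). DESeq2 called 1104 genes of the whole table against 0 by limma, whose lowest adjusted p was 0.0777. Without 1 library, the count of list genes lower at an unadjusted p under 0.05 ran from 0 to 3 and that of genes higher from 1 to 3. Over the whole table the count of genes at an unadjusted p under 0.05 then ran from 1029 to 4925. The median log2 difference of the list ran from -0.62 to 0.24. Quantile normalization left 1 lower gene and moved the median of the list to 0.17, while it moved the median of all genes from -0.07 to 0.07 and the split of their unadjusted calls from 1004 higher and 2028 lower to 1387 and 1550. With the replicate block, which is not backed by the labels, 2 genes were higher and 3 lower (Pdgfra added, unadjusted p = 0.0423), 0 passed the adjusted threshold and the median was -0.24. 

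The sign turned for genes whose groups overlapped. Sox10 was at -0.83 by edgeR and -0.82 by DESeq2, against 0.19 by limma, and ran from -1.55 to 1.93 without 1 library. Quantile normalization gave 0.19 for Nkx2-2, 0.19 for Gpr17 and 0.14 for Enpp6, and these ran from -1.04 to 0.51, from -0.52 to 0.079 and from -0.62 to 0.24 without 1 library. Aspa was at -0.26 with a pseudocount of 0.1 and -0.045 at equal sums, and ran from -1.80 to 1.82. Without 1 library Bcas1 ran from -0.40 to 1.45, Mog from -2.06 to 0.62, Cldn11 from -2.47 to 1.08 and Fa2h from -0.36 to 1.29. The causes were not tested. At this depth no difference was detectable for the 7 tested genes of the list that had no read in at least 1 library.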
